A study of Mus musculus with 32 samples.

Results

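Photon irradiation was compared with no irradiation in mouse tumours by bulk RNA sequencing, using the 8 libraries labelled photon_treated and the 8 labelled photon_ctrl, which are 16 of the 32 libraries in the series. Every library came from tumour tissue grown from the cell line KPC36, which the labels call malignant and which the title of the series places in a model of pancreatic ductal adenocarcinoma. The other 16 libraries belong to a carbon-ion arm and did not enter the comparison. Members of the comparison were taken from the treatment label alone, and no measured value entered the choice. Collection was on days 4 and 7 after treatment according to the design text, but the labels used here do not give the day of a library, the photon dose, the mouse strain or its age. All tumours derive from 1 cell line, so they stand for 1 tumour genotype, which the labels do not describe. Nothing in the labels says that the libraries of a group came from separate animals, so p values measure only the spread between these samples.

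As background, photons damage DNA through secondary electrons and radicals, and double-strand breaks stabilise the transcription factor p53, which raises Cdkn1a, a brake on cell cycle entry, and Mdm2, its own ubiquitin ligase. DNA that reaches the cytosol of irradiated cells can be sensed by the cGAS and STING proteins, which leads to type I interferon and a set of interferon-stimulated genes. Lines named KPC come from mouse pancreatic tumours driven by engineered mutations, and such tumours carry a dense stroma of fibroblasts, collagen, macrophages and vessels beside the malignant epithelium. In bulk tissue, fewer cells of a type and less RNA per cell cannot be told apart.

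Estimated counts summed to 17954086 to 51288223 per library in the controls and to 13891863 to 48229979 in the irradiated group, where replicate 3 was the shallowest. Replicate numbers were assigned here, in order of the title numbers within a group, and equal numbers in both groups mark no pairing. Correlations of log2 values within a group ranged from 0.961 to 0.986 in the controls and from 0.956 to 0.984 after photons. Levels are given below as CPM (counts scaled to library size with TMM factors), with the lowest, the median and the highest of the 8 libraries of a group in that order. Krt8, a keratin of simple epithelia and the most abundant epithelial marker, lay at 704, 1132 and 1462 CPM in the controls and at 793, 1042 and 1377 CPM after photons. For Krt8, 5 of 8 irradiated libraries were lower than the control median, with some overlap, and its log2 fold change was -0.06 ± 0.15 (adjusted p = 0.832). Epithelial RNA was thus abundant in all 16 libraries. Skeletal muscle RNA differed between libraries: the summed level of 23 muscle genes was 61.7, 2249 and 6685 CPM in the controls and 32.6, 96.4 and 1557 CPM after photons. It exceeded 1000 CPM in 5 controls (replicates 1, 4, 5, 7 and 8) and in 1 irradiated library (replicate 1). The numbers in the library titles run from 19 to 48 in the controls and start at 95 after photons. What these numbers mark is not given in the labels, and whatever they mark cannot be told apart from irradiation.

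Of 19299 genes tested, 852 (4.41%) differed at an edgeR quasi-likelihood p, adjusted by Benjamini and Hochberg, under 0.05. After photons 380 genes (1.97%) rose and 472 (2.45%) fell. The rises were smaller, with a median log2 fold change of 0.46, than the falls, with a median of -0.76, and of 220 genes that changed more than 2-fold 66 rose and 154 fell. Over all genes the median log2 fold change was 0.0018 and the median standard error 0.16. Groups of 8 did not overlap at 99 genes (0.513% of those tested), of which 42 were higher and 57 lower. The count of called genes changed with the fit. It was 113 with a muscle score as a covariate and 8 without the 6 libraries rich in muscle RNA. It was 284 without control replicate 8 and 1816 without control replicate 2. Leaving out the 6 libraries kept only control replicates 2, 3 and 6, so that fit also had fewer libraries to detect differences. The muscle score averaged 3.71 in the controls and 0.779 after photons, so muscle content and irradiation cannot be fully told apart. The part of muscle content in the differences was not tested. The number called with the muscle score as a covariate is given beside each gene list that had a call. Genes said to have risen or fallen passed in edgeR, and calls of DESeq2 are named as such. Of all 19299 genes 4545 had an unadjusted edgeR p under 0.05, and DESeq2 called 1911. These are the backgrounds for such counts of a list, and nothing is read from a list count near them. Where 1 member of a group passed, that gene is described and nothing is read from the count, since 1.97% of all genes rose and 2.45% fell.

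The genes with the smallest p were 5 that rose and 1 that fell. Cbx7, a chromodomain subunit of Polycomb repressive complex 1, lay at 13.01, 17.1 and 25.6 CPM in the controls and at 27.9, 38.9 and 45.6 CPM after photons (chr15:79915804-79971143). Between the Cbx7 groups there was no overlap, with irradiated libraries higher, and its log2 fold change was 1.13 ± 0.13 (adjusted p = 0.000799). Arhgef28, a guanine nucleotide exchange factor of RhoA, lay at 49.6, 59.3 and 70.3 CPM in the controls and at 83.1, 96.8 and 106 CPM after photons (chr13:97898594-98206675). All irradiated libraries of Arhgef28 were above all controls, and its log2 fold change was 0.70 ± 0.08 (adjusted p = 0.000799). Slc17a4, an intestinal sodium and phosphate cotransporter, lay at 2.98, 3.99 and 5.89 CPM in the controls and at 7.38, 10.3 and 13.7 CPM after photons (chr13:23897879-23915009). For Slc17a4 the groups did not overlap, and its log2 fold change was 1.31 ± 0.16 (adjusted p = 0.000864). Apobec3, a neighbour that shares bases with Cbx7, stood at 0.089 ± 0.09. Morc4, an ATPase of the MORC family, lay at 36.95, 43.2 and 54.9 CPM in the controls and at 59.5, 69.5 and 81.5 CPM after photons (chrX:139821635-139871692). Between the Morc4 groups there was no overlap, with irradiated libraries higher, and its log2 fold change was 0.67 ± 0.09 (adjusted p = 0.00117). Adgra3, an adhesion G protein-coupled receptor, lay at 79.96, 92.8 and 103 CPM in the controls and at 119.2, 138 and 156 CPM after photons (chr5:49959951-50058996). All irradiated libraries of Adgra3 were above all controls, and its log2 fold change was 0.56 ± 0.07 (adjusted p = 0.00169). Dynlt1b, a light chain of cytoplasmic dynein, lay at 22.2, 28.2 and 34.1 CPM in the controls and at 10.4, 15.1 and 20.1 CPM after photons (chr17:6429530-6440500). For Dynlt1b the groups did not overlap, and its log2 fold change was -0.88 ± 0.12 (adjusted p = 0.002). Dynlt1b is 1 of several near-identical copies on chromosome 17, so its own share of their reads is uncertain. With the muscle score as a covariate all 6 kept an adjusted p under 0.05, from 0.00565 for Cbx7 to 0.0216 for Dynlt1b. Without the libraries rich in muscle RNA Cbx7 passed (0.0248) and the other 5 did not, with adjusted p values of 0.0619 (Arhgef28), 0.0831 (Slc17a4), 0.0921 (Morc4), 0.0785 (Adgra3) and 0.0936 (Dynlt1b). All 6 passed in each of 16 fits that left out 1 library. For a gene that passed in fewer of these, their number follows its adjusted p below, as in 5 of 16 fits. A list median beyond 0.1 in size that turned sign or moved over 1.5-fold with the muscle score, without the libraries rich in muscle RNA, with part of the irradiated libraries chosen by title number, or in the lowest or highest fit with a library left out is followed by its value there. Coordinates are from RefSeq on GRCm38.p6, the build that mm10 denotes.

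**Figure D1:**
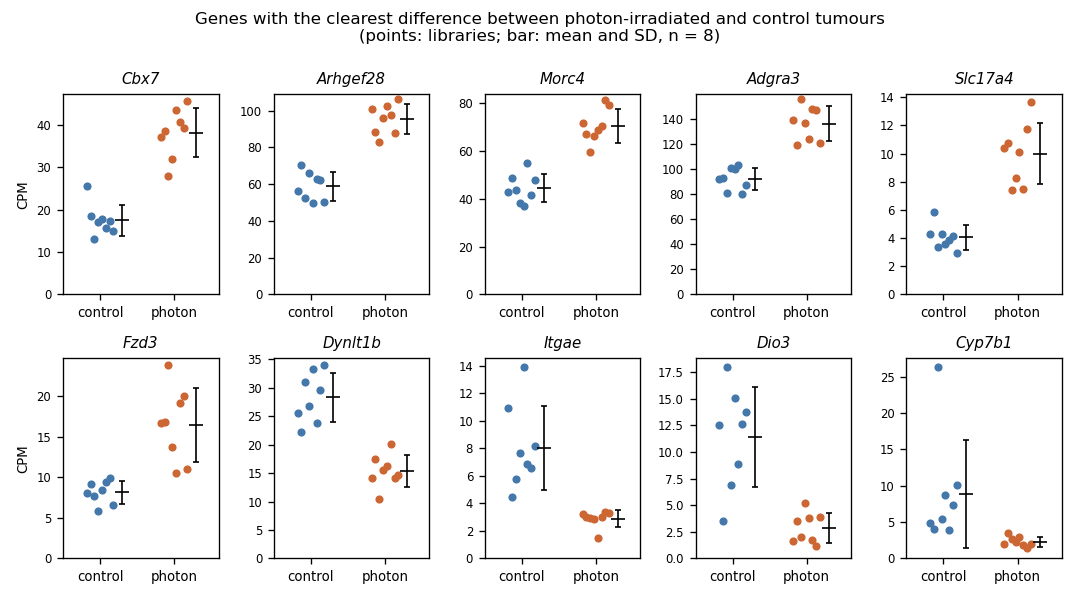
Level in CPM (y axis, from 0) of 10 genes in the 8 control and 8 photon-irradiated libraries, with the mean and SD beside the points. Cbx7, Arhgef28, Morc4, Adgra3, Slc17a4 and Fzd3 were higher in all irradiated libraries than in any control, and Dynlt1b, Itgae and Cyp7b1 were lower in all of them.

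Genes that rose were concentrated on chromosomes 5 and X. Of the 354 raised genes with a chromosome in the RefSeq table, 174 (49.15%) lay on these chromosomes, which hold 9.311% of the 16551 tested genes with a position. On chromosome 5, 105 of 1025 genes (10.2%) rose and 14 fell, and 73.9% of its genes lay above 0, with a median log2 fold change of 0.15. Chromosome X had 69 of 516 genes (13.4%) higher and 15 lower, a median of 0.14 and 69.2% positive. On the other chromosomes 180 genes rose (1.199%) and 435 fell (2.898%). The lowest median was that of chromosome 9, -0.14, with 2 genes higher and 43 lower of 930 (4.62%), whereas chromosome 12 had the larger share of genes that fell, 32 of 579 (5.53%), with a median of -0.102. These counts changed with the fit. The muscle score as a covariate left few calls: 8 genes of chromosome 5 rose and 4 fell, 4 and 1 of X, and 0 and 8 of 9. Without the libraries rich in muscle RNA 0 genes of chromosome 5 and 1 of X rose, and 2 of chromosome 9 fell. Leaving out a library gave 42 (without control replicate 8) to 156 (without control replicate 2) raised genes on chromosome 5. The range was 26 to 89 for rises on X and 14 to 111 for falls on 9.

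The shift was seen library by library. For each library, the median deviation of a chromosome's genes from their mean over the 16 libraries was taken, less the same over all other chromosomes, for genes with a mean log2 CPM of at least 3. For chromosome 5 this level was -0.138, -0.0911 and -0.0293 (lowest, median and highest) in the controls and 0.0456, 0.0961 and 0.155 after photons, on the log2 scale. All irradiated libraries were thus above all controls. For chromosome X it was -0.205, -0.0983 and 0.0288 in the controls and 0.00688, 0.101 and 0.194 after photons, so the groups overlapped slightly. Chromosome 9 was at -0.0312, 0.0706 and 0.144 in the controls and at -0.0884, -0.0537 and -0.0485 after photons, and these did not overlap. At the other 17 chromosomes the groups overlapped.

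**Figure D2:**
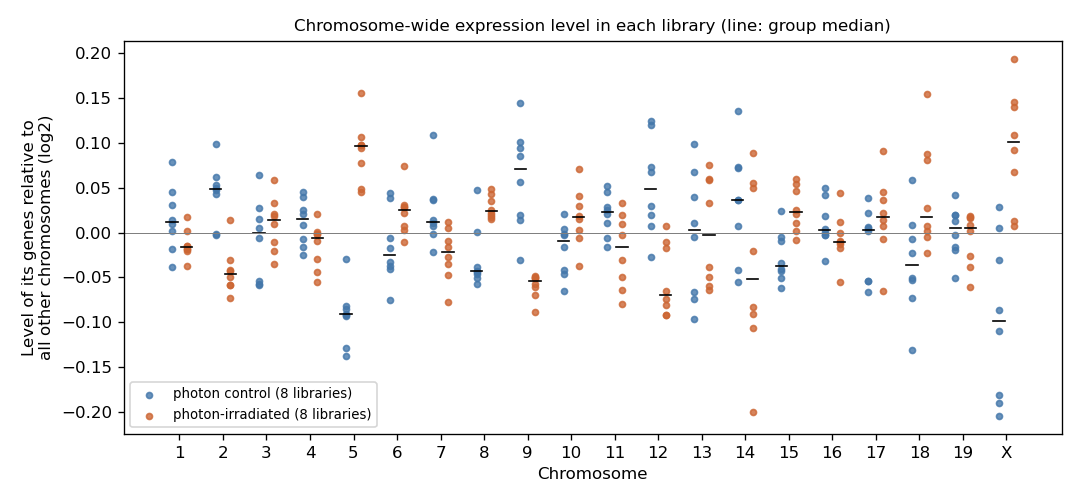
Level of the genes of each chromosome relative to all other chromosomes (y axis, log2) in each of the 8 control and 8 photon-irradiated libraries, with a line at the group median. Chromosome 5 was higher and chromosome 9 lower in all irradiated libraries than in any control, and X was higher with a slight overlap.

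Along chromosome 5 the shift was spread out: in 11 windows of 10 Mb with at least 20 genes the median log2 fold change ranged from 0.1139 to 0.1885. In 7 such windows of X it ranged from 0.07034 to 0.2499. The median of chromosome 5 was 0.161 with the muscle score as a covariate and 0.159 without the 6 libraries rich in muscle RNA, and that of X was 0.195 and 0.288. With a library left out in turn the chromosome 5 median lay between 0.130 and 0.169, and that of X between 0.119 and 0.178. Irradiated libraries with title numbers under 100 gave 0.136 for chromosome 5 and 0.107 for X, and those with numbers over 100 gave 0.159 and 0.188. Xist, the RNA that silences an X chromosome in female cells, was named after its values were seen. It lay at 2057, 2808 and 4015 CPM in the controls and at 2463, 3444 and 5475 CPM in the irradiated group, with a log2 fold change of 0.31 ± 0.16 (adjusted p = 0.24) that did not pass.

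Among the genes that met the rule for naming by size, the 14 highest had log2 fold changes from 0.92 (Hspa1b) to 2.02 (Tff1), and Slc17a4 and Cbx7 were among them. Tff1, a trefoil peptide secreted with gastric mucus, lay at 1.26, 2.93 and 13.6 CPM in the controls and at 5.92, 11.9 and 44.3 CPM after photons. Overlap of the Tff1 groups was partial, 8 of 8 irradiated libraries being higher than the control median, and its log2 fold change was 2.02 ± 0.54 (adjusted p = 0.0412, 5 of 16 fits). Mapk4, an atypical MAP kinase, lay at 3.62, 5.46 and 7.70 CPM in the controls and at 8.34, 13.4 and 18.4 CPM after photons. All irradiated libraries of Mapk4 were above all controls, and its log2 fold change was 1.32 ± 0.22 (adjusted p = 0.007). Tff1 overlaps Gm15318, whose log2 fold change was 1.54 ± 0.49. Gzmd, a serine protease of the granzyme cluster, lay at 2.10, 6.04 and 11.2 CPM in the controls and at 8.96, 15.4 and 24.3 CPM after photons. For Gzmd, 8 of 8 irradiated libraries were higher than the control median, with some overlap, and its log2 fold change was 1.32 ± 0.32 (adjusted p = 0.028, 12 of 16 fits). Ttr, transthyretin, a carrier of thyroid hormone and retinol, lay at 4.57, 7.52 and 15.8 CPM in the controls and at 7.72, 19.7 and 24.8 CPM after photons. Overlap of the Ttr groups was partial, 8 of 8 irradiated libraries being higher than the control median, and its log2 fold change was 1.19 ± 0.26 (adjusted p = 0.0206). Nrn1, neuritin, a membrane-anchored neuronal protein, lay at 14.5, 20.01 and 36.6 CPM in the controls and at 30.4, 40.7 and 66.1 CPM after photons. The Nrn1 groups overlapped, with 8 of 8 irradiated libraries above the median of the controls, and its log2 fold change was 1.02 ± 0.21 (adjusted p = 0.0168). Fzd3, a Wnt receptor needed for axon guidance, lay at 5.84, 8.27 and 9.86 CPM in the controls and at 10.5, 16.7 and 23.8 CPM after photons. For Fzd3 the groups did not overlap, and its log2 fold change was 1.01 ± 0.16 (adjusted p = 0.00654). St8sia3 and St8sia6, which add sialic acid to glycans, had log2 fold changes of 1.17 ± 0.23 (adjusted p = 0.015) and 0.97 ± 0.22 (adjusted p = 0.0231, 15 of 16 fits). St8sia3os, which overlaps St8sia3, stood at 0.73 ± 0.32. On chromosome X, Pak3, a p21-activated kinase, changed by 0.99 ± 0.18 (adjusted p = 0.0111) and Tenm1, a teneurin adhesion protein, by 0.94 ± 0.20 (adjusted p = 0.0178). Ccdc3, a secreted protein, rose by 1.24 ± 0.26 (adjusted p = 0.0178). Slc17a4, Cbx7, Fzd3 and St8sia6 also passed with the muscle score as a covariate. The other 10 of the 14 did not pass then, with adjusted p values of Tff1 (0.152), Mapk4 (0.0837), Gzmd (0.101), Ttr (0.0628), Nrn1 (0.0924), St8sia3 (0.0952), Pak3 (0.0684), Tenm1 (0.0768), Ccdc3 (0.119) and Hspa1b (0.0652).

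Called genes met that rule if they averaged log2 CPM 2 or more and every irradiated library lay on 1 side of the control median. Among them the 14 lowest ranged from -2.19 (Sfrp4) to -1.35 (Lpl). Sfrp4, a secreted inhibitor of Wnt ligands, lay at 6.47, 16.8 and 73.4 CPM in the controls and at 1.15, 4.73 and 13.6 CPM after photons. Overlap of the Sfrp4 groups was partial, 8 of 8 irradiated libraries being lower than the control median, and its log2 fold change was -2.19 ± 0.55 (adjusted p = 0.0333, 10 of 16 fits). Dio3, the deiodinase that inactivates thyroid hormone, lay at 3.48, 12.6 and 17.97 CPM in the controls and at 1.19, 2.75 and 5.18 CPM after photons. The Dio3 groups overlapped, with 8 of 8 irradiated libraries below the median of the controls, and its log2 fold change was -1.97 ± 0.33 (adjusted p = 0.007). Cyp7b1, an oxysterol hydroxylase, lay at 3.86, 6.37 and 26.3 CPM in the controls and at 1.38, 2.07 and 3.46 CPM after photons. For Cyp7b1 the groups did not overlap, and its log2 fold change was -1.96 ± 0.36 (adjusted p = 0.0115). Its highest control, replicate 3, stood well above the other 7, of which the highest was at 10.1 CPM. Cd36 and Lpl, both of fatty acid uptake, were among the 14. Cd36, a fatty acid translocase, lay at 3.06, 10.3 and 31.9 CPM in the controls and at 0.814, 2.30 and 6.98 CPM after photons. Overlap of the Cd36 groups was partial, 8 of 8 irradiated libraries being lower than the control median, and its log2 fold change was -1.95 ± 0.47 (adjusted p = 0.028, 12 of 16 fits). Lpl, lipoprotein lipase, lay at 8.48, 13.8 and 30.7 CPM in the controls and at 3.42, 5.38 and 12.1 CPM after photons. The Lpl groups overlapped, with 8 of 8 irradiated libraries below the median of the controls, and its log2 fold change was -1.35 ± 0.32 (adjusted p = 0.028, 12 of 16 fits). Steap4, a metalloreductase, lay at 3.98, 10.2 and 30.2 CPM in the controls and at 1.69, 2.90 and 9.18 CPM after photons. For Steap4, 8 of 8 irradiated libraries were lower than the control median, with some overlap, and its log2 fold change was -1.72 ± 0.43 (adjusted p = 0.0317, 7 of 16 fits). Il11, Il5ra and Itgae have roles in immune signalling. Il11, a cytokine of the interleukin-6 family, lay at 6.65, 15.3 and 45.9 CPM in the controls and at 4.56, 5.74 and 11.1 CPM after photons. Overlap of the Il11 groups was partial, 8 of 8 irradiated libraries being lower than the control median, and its log2 fold change was -1.64 ± 0.34 (adjusted p = 0.0168). Il5ra, the interleukin-5 receptor chain of eosinophils, lay at 2.29, 11.5 and 16.98 CPM in the controls and at 2.09, 3.75 and 5.39 CPM after photons. The Il5ra groups overlapped, with 8 of 8 irradiated libraries below the median of the controls, and its log2 fold change was -1.61 ± 0.31 (adjusted p = 0.0126). Itgae, the integrin chain CD103 of resident lymphocytes and dendritic cells, lay at 4.43, 7.27 and 13.95 CPM in the controls and at 1.499, 2.99 and 3.36 CPM after photons. For Itgae the groups did not overlap, and its log2 fold change was -1.48 ± 0.22 (adjusted p = 0.00313).

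Adamts15, a matrix protease, changed by -1.52 ± 0.36 (adjusted p = 0.0266, 14 of 16 fits). Its level was 11.9, 15.7 and 78.5 CPM in the controls, where replicate 3 alone was above 25 CPM, and 5.44, 8.12 and 13.9 CPM after photons. Rarres2, which encodes chemerin, changed by -1.52 ± 0.43 (adjusted p = 0.0499, 4 of 16 fits). Pmp22, a myelin protein, changed by -1.42 ± 0.31 (adjusted p = 0.0197). Cryab and Eno3 are abundant in muscle, and their log2 fold changes of -1.39 ± 0.31 and -1.44 ± 0.33 (adjusted p = 0.0223 and 0.0237, Eno3 in 15 of 16 fits) became -0.431 and -0.557 with the muscle score as a covariate and no longer passed. Cryab overlaps Hspb2, itself a muscle gene, which stood at -1.09 ± 0.38. Pmp22 (-1.76), Adamts15 (-1.92), Il11 (-1.88), Itgae (-1.22), Dio3 (-1.88), Cyp7b1 (-2.27) and Sfrp4 (-2.54) passed with the covariate, whereas the adjusted p was over 0.05 for Cd36 (0.0841), Lpl (0.0966), Steap4 (0.0921), Il5ra (0.0921) and Rarres2 (0.0871).

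Of 29 tested members of the p53 list, 5 rose and 0 fell, with a median log2 fold change of 0.10, or 0.202 without the libraries rich in muscle RNA, and DESeq2 called 8 higher and 0 lower. Cdkn1a, which encodes the cyclin-dependent kinase inhibitor p21, lay at 18.9, 26.4 and 52.6 CPM in the controls and at 25.4, 58.1 and 69.1 CPM after photons. Overlap of the Cdkn1a groups was partial, 7 of 8 irradiated libraries being higher than the control median, and its log2 fold change was 0.84 ± 0.22 (adjusted p = 0.0381, 5 of 16 fits). Irradiated replicate 1 lay below the control median at 25.4 CPM, and the other 7 were at or above 48.2 CPM. Mdm2, the ubiquitin ligase of p53, lay at 46.2, 50.8 and 52.9 CPM in the controls and at 51.2, 60.01 and 62.8 CPM after photons. The Mdm2 groups overlapped, with 8 of 8 irradiated libraries above the median of the controls, and its log2 fold change was 0.22 ± 0.05 (adjusted p = 0.0325, 7 of 16 fits). Trp53inp1, a p53-induced protein of autophagy and cell death, lay at 48.6, 67.7 and 88.96 CPM in the controls and at 83.5, 95.9 and 106 CPM after photons. For Trp53inp1, 8 of 8 irradiated libraries were higher than the control median, with some overlap, and its log2 fold change was 0.50 ± 0.12 (adjusted p = 0.0262, 14 of 16 fits). Zmat3, an RNA-binding protein, rose by 0.27 ± 0.06 (adjusted p = 0.0211) and Rrm2b, the p53-inducible subunit of ribonucleotide reductase, by 0.31 ± 0.09 (adjusted p = 0.0496, 4 of 16 fits). Other classical targets gave these values: Ccng1, which encodes cyclin G1, was at 0.018 ± 0.10, Phlda3, an Akt inhibitor, at -0.02 ± 0.10 and Eda2r, a receptor of ectodysplasin, at -0.048 ± 0.24. None of these passed, with adjusted p values of 0.932, 0.924 and 0.927. With a library left out in turn 1 (without control replicate 8) to 6 (without control replicate 4 or irradiated replicate 1) members of the list passed, and 0 passed with the muscle score as a covariate. No member passed without the libraries rich in muscle RNA, where Trp53inp1 stood lower, at 0.292, and Cdkn1a higher, at 1.12.

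**Figure D3:**
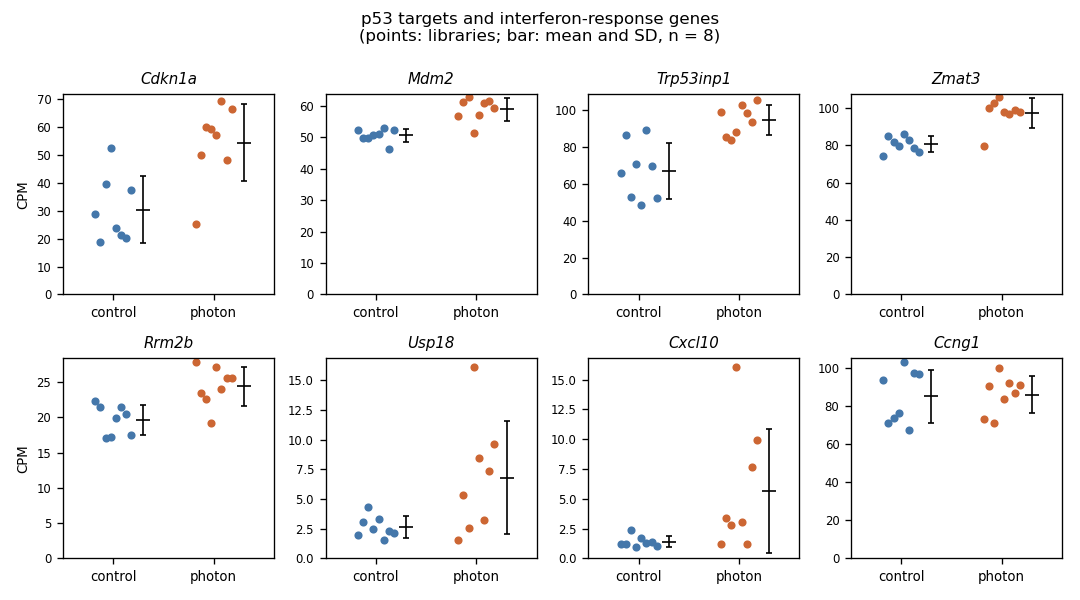
Level in CPM (y axis, from 0) of 6 p53 targets, Usp18 and Cxcl10 in the 8 control and 8 photon-irradiated libraries, with the mean and SD beside the points. The 5 raised p53 targets overlapped the controls in part, Ccng1 had a log2 fold change of 0.018, and Usp18 and Cxcl10 were spread widely after photons.

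Genes of cell division had negative log2 fold changes throughout in the fit of all 16 libraries, and none passed. Without the libraries rich in muscle RNA 7 mitosis and 18 DNA replication genes were positive. Of the 28 tested mitosis genes all had a negative log2 fold change, with a median of -0.59, or -0.0799 without the libraries rich in muscle RNA; 0 passed in edgeR, 23 had an unadjusted p under 0.05 and DESeq2 called 9. The nearest to the threshold were Ttk, a spindle checkpoint kinase, at -0.82 ± 0.23 (adjusted p = 0.0503) and Kif23, a kinesin of cytokinesis, at -0.58 ± 0.19 (adjusted p = 0.0753). Control libraries varied widely here, with Ttk at 6.33, 14.97 and 18.1 CPM against 3.78, 7.18 and 11.7 CPM after photons. All 30 DNA replication genes were negative too, with a median of -0.37, or -0.193 with the muscle score and 0.0369 without the libraries rich in muscle RNA; 0 passed in edgeR, 14 had an unadjusted p under 0.05 and DESeq2 called 4 (with a library left out 0 to 9 passed). Ccne1, which encodes cyclin E1, stood at -0.77 ± 0.24 (adjusted p = 0.0696) and Gins1, a subunit of the replicative helicase, at -0.72 ± 0.21 (adjusted p = 0.0626). Of 31 genes of double-strand break repair, 0 passed in edgeR, 11 had an unadjusted p under 0.05 and DESeq2 called 5 (with a library left out 0 to 7 passed), with a median of -0.21, or -0.138 with the muscle score and -0.000983 without the libraries rich in muscle RNA. Rad54b and Rad54l, translocases of homologous recombination, were at -0.66 ± 0.19 (adjusted p = 0.0502) and -0.58 ± 0.18 (adjusted p = 0.0644). Without control replicate 2, the number of mitosis genes called rose to the highest of the 16 fits, 20. That library was among the few controls kept when the libraries rich in muscle RNA were left out. Its part in the medians of that fit was not tested.

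Interferon-stimulated genes were mostly higher in sign, and 1 rose. Of 30 tested members 27 had a positive log2 fold change, with a median of 0.50, or 0.297 without irradiated replicate 4; 13 had an unadjusted p under 0.05 and DESeq2 called 5. Usp18, a protease that removes ISG15 and restrains the interferon receptor, lay at 1.55, 2.40 and 4.34 CPM in the controls and at 1.56, 6.36 and 16.1 CPM after photons. Overlap of the Usp18 groups was partial, 7 of 8 irradiated libraries being higher than the control median, and its log2 fold change was 1.36 ± 0.38 (adjusted p = 0.0484, 4 of 16 fits). Mx2, an interferon-induced GTPase, lay at 0.604, 0.855 and 2.58 CPM in the controls and at 0.534, 2.86 and 5.40 CPM after photons. The Mx2 groups overlapped, with 7 of 8 irradiated libraries above the median of the controls, and its log2 fold change was 1.34 ± 0.40 (adjusted p = 0.0602). The summed level of the list was 280.0, 315 and 479 CPM in the controls and 252, 425 and 825 CPM after photons, so some irradiated libraries lay at control levels. The fits without a library called 0 to 2 members, and 0 passed with the muscle score as a covariate.

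Interferon-stimulated genes can be switched on through the interferon-stimulated response element. Its core, GAAA, any 2 bases and GAAA again, on either strand, was searched in the 250 bases before each RefSeq start on GRCm38.p6 and was present in 10 of the 20 members with a promoter there (50%), against 3.46% of all genes and 2.98% of all promoters. Ifit3b, Ifit3 and Ifit1, which encode RNA-binding proteins that block translation of foreign RNA, are the members with the smallest p that hold it. They are shown for that reason, and each carries 2 copies close together. These are written in capitals 5′ to 3′ on the strand of the gene, where the core reads in reverse complement.
Ifit3b, chr19:34607763-34607842, plus strand: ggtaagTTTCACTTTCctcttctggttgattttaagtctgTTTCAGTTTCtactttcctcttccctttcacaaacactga
Ifit3, chr19:34583367-34583446, plus strand: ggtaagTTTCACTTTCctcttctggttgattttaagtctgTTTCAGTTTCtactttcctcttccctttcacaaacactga
Ifit1, chr19:34640764-34640843, plus strand: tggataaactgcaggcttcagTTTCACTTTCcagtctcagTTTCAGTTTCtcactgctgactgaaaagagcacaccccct
The windows of Ifit3b and Ifit3 hold the same letters. Near-identical copies can share reads, so the split between these genes is uncertain. Ifit1 lay at 1.28, 2.51 and 9.49 CPM in the controls and at 1.97, 8.24 and 26.5 CPM in the irradiated group, with a log2 fold change of 1.503 ± 0.52 (adjusted p = 0.0955). Ifit3 stood at 1.46 ± 0.49 (adjusted p = 0.0897) and Ifit3b at 1.64 ± 0.55 (adjusted p = 0.0873). None of these 3 fold changes passed.

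Among chemokines 1 of 27 tested rose and none fell in edgeR, with a median of -0.28, or 0.0532 without the libraries rich in muscle RNA, -0.481 with title numbers under 100 and -0.184 without irradiated replicate 1. DESeq2 called 1 higher and 3 lower, and 0 to 5 passed with a library left out. Without the libraries rich in muscle RNA 15 members were positive and 12 negative. Cxcl10, an interferon-induced ligand of CXCR3, lay at 0.928, 1.27 and 2.40 CPM in the controls and at 1.17, 3.20 and 16.02 CPM after photons. For Cxcl10, 6 of 8 irradiated libraries were higher than the control median, with some overlap, and its log2 fold change was 2.01 ± 0.47 (adjusted p = 0.0261, 14 of 16 fits). With the muscle score as a covariate, or without control replicate 8 or irradiated replicate 7, no chemokine passed. Cxcl10 lies on chromosome 5, and 2 of 8 irradiated libraries were below its control median. Ccl11, the eosinophil attractant eotaxin, was at -0.98 ± 0.29 (adjusted p = 0.0599) and Ccl5, made by cytotoxic lymphocytes, at 0.22 ± 0.25 (adjusted p = 0.624). Of 12 cytokines 2 fell, Il11 and Il33, and DESeq2 called 0 higher and 3 lower. Il33, an alarmin stored in the nuclei of stromal and epithelial cells, lay at 150.3, 208 and 286 CPM in the controls and at 97.3, 129.6 and 176 CPM after photons. Overlap of the Il33 groups was partial, 8 of 8 irradiated libraries being lower than the control median, and its log2 fold change was -0.70 ± 0.14 (adjusted p = 0.015). Both cytokines passed in all 16 fits that left out a library and with the muscle score as a covariate.

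Of 12 tested genes of antigen presentation on MHC class II, 5 fell after photons. The median log2 fold change was -0.61 and all were negative. No member passed with the muscle score as a covariate or without the libraries rich in muscle RNA, and 4 to 7 passed with a library left out. DESeq2 called 0 higher and 7 lower. H2-Aa, the alpha chain of the I-A molecule, lay at 94.7, 118 and 158 CPM in the controls and at 68.1, 75.6 and 110.1 CPM after photons. The H2-Aa groups overlapped, with 8 of 8 irradiated libraries below the median of the controls, and its log2 fold change was -0.60 ± 0.12 (adjusted p = 0.0154). H2-Ab1, its beta chain, lay at 97.3, 131 and 171 CPM in the controls and at 74.5, 82.3 and 118.5 CPM after photons. For H2-Ab1, 8 of 8 irradiated libraries were lower than the control median, with some overlap, and its log2 fold change was -0.62 ± 0.13 (adjusted p = 0.0155). Ciita, the coactivator that governs class II transcription, lay at 17.7, 21.5 and 33.3 CPM in the controls and at 8.38, 14.4 and 21.1 CPM after photons. Overlap of the Ciita groups was partial, 8 of 8 irradiated libraries being lower than the control median, and its log2 fold change was -0.72 ± 0.19 (adjusted p = 0.0368, 7 of 16 fits). H2-Eb1, the beta chain of I-E, fell by 0.63 on the log2 scale (SE 0.13, adjusted p = 0.0168) and Cd74, the invariant chain, by 0.61 (SE 0.13, adjusted p = 0.0206). All 5 were lower than the control median in 8 of 8 irradiated libraries. With the muscle score as a covariate the log2 fold changes were -0.594 for H2-Aa and -0.661 for Ciita. Of 14 genes of MHC class I presentation, 0 passed in edgeR, 2 had an unadjusted p under 0.05 and DESeq2 called 1 (with a library left out 0 to 1 passed), with a median of -0.19, or -0.3 with title numbers under 100, -0.125 without control replicate 3 and -0.301 without irradiated replicate 4. Pdia3, a chaperone of class I loading, was at -0.32 ± 0.10 (adjusted p = 0.065) and Tap2, a peptide transporter, at -0.40 ± 0.17 (adjusted p = 0.159).

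Class II promoters are known for a conserved array that ends in a CCAAT box bound by NF-Y. This motif was added after values of the list were seen. CCAAT on either strand was present in 7 of 9 list members with a promoter (77.8%), against 37.5% of all genes and 33.8% of all promoters, in the same 250 bases. It is no feature of this list alone: 19 of 24 mitosis genes with a promoter (79.2%) held it too. H2-Aa and H2-Eb1, which both fell, are printed as the list members with the smallest p that hold it. CCAAT or its reverse complement ATTGG is in capitals.
H2-Aa, chr17:34287832-34287911, minus strand: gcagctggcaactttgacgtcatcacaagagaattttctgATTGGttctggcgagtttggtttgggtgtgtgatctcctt
H2-Eb1, chr17:34305787-34305866, plus strand: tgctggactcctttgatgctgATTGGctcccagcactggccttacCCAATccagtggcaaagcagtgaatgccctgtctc
The match lies 48 bases before the start of H2-Aa, and H2-Eb1 holds 2 matches.

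**Figure D4:**
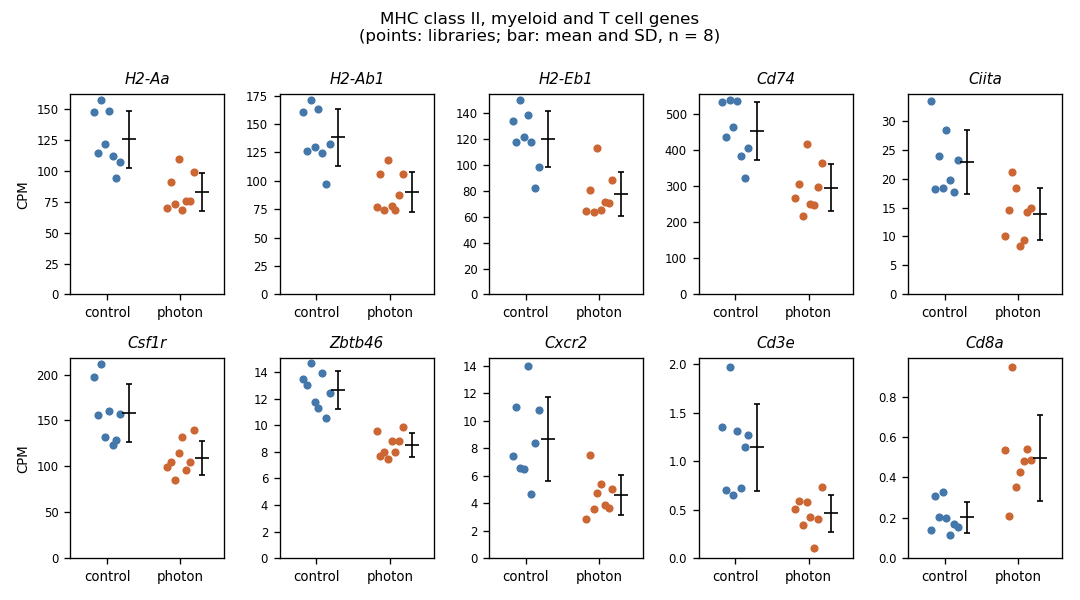
Level in CPM (y axis, from 0) of 5 MHC class II genes, 3 myeloid genes and 2 T cell genes in the 8 control and 8 photon-irradiated libraries, with the mean and SD beside the points. All but Cd8a fell; Cd8a lay under 1 CPM in all libraries and was higher after photons.

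Some markers of myeloid cells fell after photons. In the macrophage and monocyte list 1 of 18 fell and 0 rose (median -0.34, or -0.208 with title numbers over 100), DESeq2 called 0 higher and 1 lower, 0 passed with the muscle score and 0 to 1 with a library left out. Csf1r, the receptor for macrophage colony-stimulating factor, lay at 123.6, 156 and 211 CPM in the controls and at 84.8, 104 and 140.2 CPM after photons. The Csf1r groups overlapped, with 8 of 8 irradiated libraries below the median of the controls, and its log2 fold change was -0.53 ± 0.12 (adjusted p = 0.0253, 13 of 16 fits). Cd68, a macrophage sialomucin, stood at -0.56 ± 0.22 (adjusted p = 0.129) and Lyz2, lysozyme of myeloid cells, at -0.49 ± 0.19 (adjusted p = 0.136). Among resident macrophage markers 3 of 8 fell and 0 rose (median -1.25), DESeq2 called 0 higher and 5 lower, 0 passed with the muscle score and 0 to 5 with a library left out. None of them passed without control replicate 1, 3, 5 or 8 or without irradiated replicate 2 or 7. Lyve1, a hyaluronan receptor of perivascular macrophages and lymphatics, lay at 0.822, 10.5 and 30.4 CPM in the controls and at 0.694, 1.45 and 6.12 CPM after photons. For Lyve1, 8 of 8 irradiated libraries were lower than the control median, with some overlap, and its log2 fold change was -2.39 ± 0.58 (adjusted p = 0.0285, 9 of 16 fits). Mrc1, the mannose receptor CD206, lay at 92.3, 194 and 256 CPM in the controls and at 66.7, 110.2 and 136 CPM after photons. Overlap of the Mrc1 groups was partial, 8 of 8 irradiated libraries being lower than the control median, and its log2 fold change was -0.76 ± 0.21 (adjusted p = 0.0457, 4 of 16 fits). Stab1, a scavenger receptor, fell by 0.47 on the log2 scale (SE 0.11, adjusted p = 0.0285, 8 of 16 fits), while Selenop, a selenium carrier that other cells also express, stood at 0.28 ± 0.15 (adjusted p = 0.282). In the list of chitinase-like and alternative macrophage genes 3 of 6 fell and 0 rose (median -1.10, or -0.489 without the libraries rich in muscle RNA), DESeq2 called 0 higher and 3 lower, 0 passed with the muscle score and 0 to 3 with a library left out: Mgl2 (-0.78 ± 0.19, adjusted p = 0.0307, 9 of 16 fits), a lectin, Ear2 (-1.33 ± 0.36, adjusted p = 0.0464, 5 of 16 fits), a ribonuclease, and Ccl24 (-1.89 ± 0.50, adjusted p = 0.04, 4 of 16 fits), the chemokine eotaxin 2. None of that list passed without control replicate 1, 3, 5 or 8 or without irradiated replicate 6 or 7. With that score the medians of the 3 lists were -0.308, -1.37 and -0.828.

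In the neutrophil list 4 of 14 fell and 0 rose (median -0.81), DESeq2 called 0 higher and 5 lower, 1 passed with the muscle score and 1 to 4 with a library left out. Cebpe, a transcription factor of granulocyte maturation, lay at 0.643, 0.850 and 1.14 CPM in the controls and at 0.267, 0.366 and 0.538 CPM after photons. All irradiated libraries of Cebpe were below all controls, and its log2 fold change was -1.14 ± 0.20 (adjusted p = 0.00911). Cxcr2, the receptor for neutrophil-attracting chemokines, lay at 4.69, 7.92 and 13.98 CPM in the controls and at 2.87, 4.28 and 7.51 CPM after photons. For Cxcr2, 8 of 8 irradiated libraries were lower than the control median, with some overlap, and its log2 fold change was -0.92 ± 0.22 (adjusted p = 0.0289, 13 of 16 fits). Csf3r, the receptor for G-CSF, and Retnlg, a resistin-like protein, changed by -0.78 ± 0.22 (adjusted p = 0.0484, 4 of 16 fits) and -1.88 ± 0.51 (adjusted p = 0.0447, 4 of 16 fits). Mmp9, a gelatinase that tumour cells can also make, stood at -0.42 ± 0.30 (adjusted p = 0.406). Of the dendritic cell markers 2 of 11 fell and 0 rose (median -0.68, or -0.418 without the libraries rich in muscle RNA), DESeq2 called 0 higher and 4 lower, 1 passed with the muscle score and 1 to 5 with a library left out. Zbtb46, a transcription factor of classical dendritic cells, lay at 10.5, 12.7 and 14.7 CPM in the controls and at 7.43, 8.40 and 9.90 CPM after photons. Between the Zbtb46 groups there was no overlap, with irradiated libraries lower, and its log2 fold change was -0.57 ± 0.09 (adjusted p = 0.00667). Itgax, the integrin CD11c, fell by 0.56 on the log2 scale (SE 0.13, adjusted p = 0.0243, 15 of 16 fits), and Fscn1, an actin bundler that tumour cells also express, stood at 0.11 ± 0.13 (adjusted p = 0.658). Cebpe and Zbtb46 passed with the muscle score as a covariate. Of 7 mast cell genes, 0 passed in edgeR, 4 had an unadjusted p under 0.05 and DESeq2 called 0, with a median of -1.16; Cpa3, a mast cell protease, was at -1.52 ± 0.55, Ms4a2, a chain of the IgE receptor, at -1.34 ± 0.53 and Kit at 0.13 ± 0.22 (adjusted p = 0.107, 0.139 and 0.766).

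Of 24 tested T cell genes 4 fell and 2 rose, with a median of -0.53. With a library left out 1 to 8 passed, and without control replicate 3, control replicate 8 or irradiated replicate 7, 1 fell and 0 rose. Cd3e, a chain of the T cell receptor complex, lay at 0.655, 1.21 and 1.97 CPM in the controls and at 0.107, 0.470 and 0.733 CPM after photons. The Cd3e groups overlapped, with 8 of 8 irradiated libraries below the median of the controls, and its log2 fold change was -1.27 ± 0.29 (adjusted p = 0.0255, 13 of 16 fits). Cd8a, the coreceptor of cytotoxic T cells, lay at 0.114, 0.186 and 0.327 CPM in the controls and at 0.211, 0.484 and 0.948 CPM after photons. For Cd8a, 8 of 8 irradiated libraries were higher than the control median, with some overlap, and its log2 fold change was 1.22 ± 0.29 (adjusted p = 0.028, 11 of 16 fits). The Cd8a levels correspond to few reads and the direction is opposite to that of Cd3e. Cd2, an adhesion receptor, Cd6, a costimulatory receptor, and Ctla4, an inhibitory receptor, changed by -1.65 ± 0.37 (adjusted p = 0.0237), -1.02 ± 0.27 (adjusted p = 0.0409, 5 of 16 fits) and -1.51 ± 0.39 (adjusted p = 0.0348, 8 of 16 fits). The other gene that rose was Bcl11b, a T lineage factor that was chosen after its values were seen, at 0.58 ± 0.16 (adjusted p = 0.0456, 4 of 16 fits). Tcf7, the most abundant gene of the list, stood at -0.24 ± 0.09 (adjusted p = 0.117). The list had 0 members called with the muscle score as a covariate, and DESeq2 called 2 higher and 8 lower. Of 7 cytotoxic and NK cell genes, 0 passed in edgeR, 0 had an unadjusted p under 0.05 and DESeq2 called 0, with Klrk1, the receptor NKG2D, at -0.56 ± 0.29 and Klrd1, the receptor CD94, at -0.54 ± 0.32 (adjusted p = 0.246 and 0.312). Among B and plasma cell genes 1 of 6 fell and 0 rose (median -0.33, or -0.193 with the muscle score, -0.0921 without the libraries rich in muscle RNA, -0.525 with title numbers under 100 and -0.594 without irradiated replicate 5), DESeq2 called 0 higher and 1 lower, 1 passed with the muscle score and 1 with a library left out. Without the libraries rich in muscle RNA 3 members were negative and 3 positive. Ighm, the constant region of IgM, lay at 3.10, 3.89 and 10.1 CPM in the controls and at 1.42, 1.99 and 2.48 CPM after photons. Between the Ighm groups there was no overlap, with irradiated libraries lower, and its log2 fold change was -1.35 ± 0.23 (adjusted p = 0.00725). Cd22, an inhibitory receptor, stood at -0.21 ± 0.22 and Bank1, a B cell scaffold, at -0.35 ± 0.15 (adjusted p = 0.591 and 0.164). In the checkpoint list 1 of 11 fell and 0 rose (median -0.37), DESeq2 called 0 higher and 4 lower, 0 passed with the muscle score and 1 to 3 with a library left out. Btla, an inhibitory receptor of lymphocytes, lay at 0.860, 2.24 and 3.85 CPM in the controls and at 0.378, 1.13 and 1.17 CPM after photons. The Btla groups overlapped, with 8 of 8 irradiated libraries below the median of the controls, and its log2 fold change was -1.31 ± 0.30 (adjusted p = 0.0237). It was -0.713 (adjusted p = 0.456) without the libraries rich in muscle RNA. Vsir, the checkpoint VISTA of myeloid cells, stood at -0.55 ± 0.16 (adjusted p = 0.0535).

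Some stromal genes fell after photons. Among collagen and matrix genes 4 of 38 fell and 0 rose (median -0.39), DESeq2 called 0 higher and 13 lower, 1 passed with the muscle score and 2 to 10 with a library left out. Vcan, the proteoglycan versican, lay at 162, 261 and 321 CPM in the controls and at 114, 145 and 206 CPM after photons. For Vcan, 8 of 8 irradiated libraries were lower than the control median, with some overlap, and its log2 fold change was -0.72 ± 0.13 (adjusted p = 0.0113). Col15a1, a basement membrane collagen, lay at 118, 167 and 384 CPM in the controls and at 77.5, 82.8 and 128 CPM after photons. Overlap of the Col15a1 groups was partial, 8 of 8 irradiated libraries being lower than the control median, and its log2 fold change was -1.06 ± 0.21 (adjusted p = 0.0143). Col14a1, a fibril-associated collagen, and Mfap5, a microfibril protein, changed by -1.004 ± 0.24 (adjusted p = 0.028, 11 of 16 fits) and -0.76 ± 0.19 (adjusted p = 0.0319, 9 of 16 fits). Of the fibroblast and myofibroblast genes 3 of 20 fell and 0 rose (median -0.44), DESeq2 called 1 higher and 7 lower, 1 passed with the muscle score and 0 to 6 with a library left out, none of them without irradiated replicate 7. Control replicate 3 stood apart on this list, with a mean log2 CPM of 6.14 against 4.84 to 5.44 in the others, and without it 1 member passed and the median was -0.297. Pdgfrb, a receptor of platelet-derived growth factor, lay at 132, 167 and 263 CPM in the controls and at 86.99, 132 and 158 CPM after photons. The Pdgfrb groups overlapped, with 8 of 8 irradiated libraries below the median of the controls, and its log2 fold change was -0.51 ± 0.14 (adjusted p = 0.0483, 6 of 16 fits). Dpp4, a peptidase of progenitor fibroblasts, lay at 2.35, 4.56 and 16.1 CPM in the controls and at 1.22, 1.96 and 3.30 CPM after photons. For Dpp4, 8 of 8 irradiated libraries were lower than the control median, with some overlap, and its log2 fold change was -1.59 ± 0.36 (adjusted p = 0.0238, 15 of 16 fits). Pi16, a marker of adventitial fibroblasts, lay at 5.24, 16.7 and 179 CPM in the controls and at 0.950, 1.70 and 20.5 CPM after photons. Overlap of the Pi16 groups was partial, 7 of 8 irradiated libraries being lower than the control median, and its log2 fold change was -2.89 ± 0.81 (adjusted p = 0.0498, 4 of 16 fits). The highest control of Pi16 was more than 10 times the control median. Control replicate 3 was also the highest for Mfap5, apart from the others. Lrrc15, a marker of myofibroblasts in tumours, stood at -0.078 ± 0.17 (adjusted p = 0.816). In the list of secreted Wnt inhibitors 1 of 8 fell and 0 rose (median -0.40, or -0.256 without the libraries rich in muscle RNA), DESeq2 called 0 higher and 1 lower, 1 passed with the muscle score and 0 to 2 with a library left out: Sfrp4 fell, and Dkk2 stood at -0.62 ± 0.26 (adjusted p = 0.159). In the TGF-beta list 1 of 15 fell and 0 rose (median -0.026), DESeq2 called 0 higher and 2 lower, 0 passed with the muscle score and 0 to 2 with a library left out: Tgfbr2, the type II receptor, fell by 0.38 on the log2 scale (SE 0.10, adjusted p = 0.0395, 7 of 16 fits), and Tgfb1, a ligand, stood at -0.33 ± 0.10 (adjusted p = 0.0604).

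Some vascular genes fell as well. Of the blood endothelial genes 3 of 21 fell and 0 rose (median -0.41, or -0.262 without control replicate 3), DESeq2 called 0 higher and 8 lower, 2 passed with the muscle score and 2 to 11 with a library left out. Control replicate 3 stood apart on this list, with a mean log2 CPM of 5.33 against 4.33 to 4.64 in the others, and so did irradiated replicate 5, with 4.92 against 3.82 to 4.15 in the others. Aplnr, the apelin receptor of sprouting and venous endothelium, lay at 50.96, 70.8 and 98.2 CPM in the controls and at 24.3, 35.5 and 50.01 CPM after photons. All irradiated libraries of Aplnr were below all controls, and its log2 fold change was -1.07 ± 0.15 (adjusted p = 0.00291). Ackr1, an atypical chemokine receptor of venules, lay at 0.229, 1.82 and 8.28 CPM in the controls and at 0.0534, 0.258 and 0.912 CPM after photons. For Ackr1, 8 of 8 irradiated libraries were lower than the control median, with some overlap, and its log2 fold change was -2.69 ± 0.61 (adjusted p = 0.0237). Tek, the angiopoietin receptor TIE2, lay at 10.2, 11.6 and 24.7 CPM in the controls and at 4.40, 7.09 and 13.04 CPM after photons. Overlap of the Tek groups was partial, 7 of 8 irradiated libraries being lower than the control median, and its log2 fold change was -0.90 ± 0.22 (adjusted p = 0.0304, 10 of 16 fits). Aplnr and Ackr1 passed in all 16 fits that left out a library and with the muscle score as a covariate. Ackr1 overlaps Cadm3, which stood at -2.35 ± 0.74, and the reads of overlapping genes may not be separable. Flt1, the most abundant endothelial gene, stood at 0.20 ± 0.16 (adjusted p = 0.465). Of 5 lymphatic endothelial genes, 0 passed in edgeR, 0 had an unadjusted p under 0.05 and DESeq2 called 0: Flt4, a receptor for VEGF-C, was at 0.032 ± 0.15, Gpr182, an atypical chemokine receptor, at 0.28 ± 0.20 and Reln, which encodes reelin, at -0.28 ± 0.65 (adjusted p = 0.919, 0.419 and 0.824). In the pericyte list 1 of 8 fell and 0 rose (median -0.48, or -0.728 with title numbers under 100 and -0.276 with title numbers over 100), DESeq2 called 0 higher and 2 lower, 1 passed with the muscle score and 0 to 4 with a library left out, and irradiated replicate 5 stood apart with a mean log2 CPM of 4.89 against 3.48 to 4.04 in the others. Rgs5, a regulator of G protein signalling in pericytes, lay at 74.7, 110.2 and 202 CPM in the controls and at 59.3, 69.96 and 111 CPM after photons. The Rgs5 groups overlapped, with 7 of 8 irradiated libraries below the median of the controls, and its log2 fold change was -0.66 ± 0.18 (adjusted p = 0.0408, 6 of 16 fits). Notch3 stood at -0.66 ± 0.21 (adjusted p = 0.0792). Of the Schwann cell genes 2 of 5 fell and 0 rose (median -1.17), DESeq2 called 0 higher and 3 lower, 2 passed with the muscle score and 0 to 3 with a library left out, none of them without irradiated replicate 7. Ngfr, the low-affinity neurotrophin receptor, lay at 0.879, 1.49 and 6.52 CPM in the controls and at 0.244, 0.580 and 1.06 CPM after photons. For Ngfr, 8 of 8 irradiated libraries were lower than the control median, with some overlap, and its log2 fold change was -1.78 ± 0.42 (adjusted p = 0.0262, 15 of 16 fits). Scn7a, a sodium channel, stood at -1.17 ± 0.36 (adjusted p = 0.0658).

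In the epithelial list 1 of 19 rose and 0 fell, with a median of 0.17, or 0.11 without control replicate 3 and 0.308 without control replicate 2. Ehf, an ETS factor of epithelia, lay at 22.4, 38.3 and 67.7 CPM in the controls and at 37.5, 71.1 and 102 CPM after photons. Overlap of the Ehf groups was partial, 7 of 8 irradiated libraries being higher than the control median, and its log2 fold change was 0.85 ± 0.23 (adjusted p = 0.0432, 5 of 16 fits). Esrp2, an epithelial splicing regulator, stood at 0.27 ± 0.10 (adjusted p = 0.118). In the list of gastric-type classical genes 1 of 16 rose, Tff1, with a median of 0.23, or 0.558 with the muscle score, 0.466 without the libraries rich in muscle RNA, 0.407 with title numbers under 100, 0.0832 with title numbers over 100, 0.0825 without irradiated replicate 2 and 0.509 without control replicate 5, and Ctse, cathepsin E, stood at 0.50 ± 0.16 (adjusted p = 0.0792). Of 8 squamous genes 1 rose, Pkp1, a desmosomal plakophilin (0.56 ± 0.14, adjusted p = 0.0305, 8 of 16 fits), and Sprr1a, a cornified envelope protein, stood at 0.69 ± 0.24 (adjusted p = 0.0963). Pkp1 stood at 0.266 (adjusted p = 0.534) without the libraries rich in muscle RNA. The squamous median was 0.133, or 0.209 with the muscle score and 0.379 without the libraries rich in muscle RNA. It was -0.0575 with title numbers over 100 and ran from -0.0378 to 0.367 with a library left out. Among 9 genes of epithelial-mesenchymal transition 2 fell: Zeb2, a repressor of epithelial genes (-0.47 ± 0.13, adjusted p = 0.0483, 5 of 16 fits), and Cdh2, N-cadherin (-0.52 ± 0.14, adjusted p = 0.0452, 4 of 16 fits). Of 4 driver genes, 0 passed in edgeR, 1 had an unadjusted p under 0.05 and DESeq2 called 1 (with a library left out 0 to 1 passed), with Trp53 at -0.43 ± 0.13 and Smad4 at 0.13 ± 0.08 (adjusted p = 0.067 and 0.352). Of 20 genes of ERK output and feedback, 0 passed in edgeR, 2 had an unadjusted p under 0.05 and DESeq2 called 0, and the inhibitors Spry2 and Spred1 were at -0.26 ± 0.12 and -0.17 ± 0.08 (adjusted p = 0.197 and 0.192). In the insulin-like growth factor list 2 of 12 rose and 0 fell, whereas DESeq2 called 2 higher and 3 lower and upper-quartile scaling 2 higher and 1 lower. Igf2r, the receptor that clears IGF2, lay at 109, 126 and 138 CPM in the controls and at 106, 171 and 205 CPM after photons. The Igf2r groups overlapped, with 7 of 8 irradiated libraries above the median of the controls, and its log2 fold change was 0.43 ± 0.10 (adjusted p = 0.0278, 15 of 16 fits). Igfbp2, an IGF-binding protein, lay at 0.745, 2.11 and 4.93 CPM in the controls and at 3.15, 7.34 and 30.6 CPM after photons. For Igfbp2, 8 of 8 irradiated libraries were higher than the control median, with some overlap, and its log2 fold change was 1.85 ± 0.50 (adjusted p = 0.0443, 5 of 16 fits). The muscle score as a covariate left 0 of the epithelial, 0 of the gastric-type, 0 of the squamous, 0 of the epithelial-mesenchymal transition and 0 of the insulin-like growth factor genes called. DESeq2 called 1 higher and 0 lower in the epithelial, 2 higher and 0 lower in the gastric-type, 2 higher and 0 lower in the squamous and 0 higher and 2 lower in the epithelial-mesenchymal transition list. Upper-quartile scaling called 0 of the last list. With a library left out 0 to 1, 0 to 2, 0 to 2, 0 to 2 and 0 to 4 passed in that order. Both calls of the growth factor list were lost without control replicate 8. Neither gene of epithelial-mesenchymal transition passed without control replicate 3, 5, 7 or 8 or without irradiated replicate 1, 2, 4, 6 or 7.

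Of 7 tested genes of the imprinted domain on chromosome 12 that holds Dio3, 2 fell, with a median of -0.53, or -0.352 without control replicate 8. The fits without a library called 1 to 3. Rian, a maternally expressed noncoding RNA of that domain, lay at 88.3, 141 and 198 CPM in the controls and at 52.2, 96.5 and 109 CPM after photons. Overlap of the Rian groups was partial, 8 of 8 irradiated libraries being lower than the control median, and its log2 fold change was -0.59 ± 0.15 (adjusted p = 0.0376, 6 of 16 fits). In the Polycomb list 1 of 24 rose, Cbx7, and the median was 0.01. Its relative Cbx6 stood at 0.30 ± 0.10 (adjusted p = 0.0989). Of 11 genes of pyroptosis and necroptosis 1 rose. Gsdme, a gasdermin cleaved by caspase 3 to form pores, lay at 31.9, 34.8 and 40.3 CPM in the controls and at 41.1, 44.8 and 53.8 CPM after photons. All irradiated libraries of Gsdme were above all controls, and its log2 fold change was 0.36 ± 0.07 (adjusted p = 0.0168). Casp1, the inflammasome protease, stood at -0.79 ± 0.30 (adjusted p = 0.127). In the fit with the muscle score 1 gene of the imprinted domain, 1 of the Polycomb list and 0 of pyroptosis and necroptosis passed. DESeq2 called 0 higher and 2 lower in the domain, 1 higher and 0 lower in the Polycomb list and 1 higher and 0 lower among the death genes.

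Genes of hypoxia and glycolysis were mostly higher in sign. Of 26 tested 23 had a positive log2 fold change, with a median of 0.40, or 0.243 with the muscle score, 0.0358 with title numbers under 100, 0.615 with title numbers over 100 and 0.261 without irradiated replicate 5; 0 passed in edgeR, 10 had an unadjusted p under 0.05 and DESeq2 called 0 (with a library left out 0 to 1 passed). Positive members numbered 14 for irradiated libraries with title numbers under 100 and 25 for those over 100. Ankrd37, a target of HIF1, was at 0.94 ± 0.38 and Kdm3a, a hypoxia-inducible demethylase, at 0.40 ± 0.16 (adjusted p = 0.146 and 0.141). Of 74 nuclear genes of oxidative phosphorylation 1 rose, Ndufa6 of complex I (0.26 ± 0.07, adjusted p = 0.0484, 3 of 16 fits), with a median of -0.10, or -0.00979 with the muscle score, 0.0667 without the libraries rich in muscle RNA and -0.0473 without irradiated replicate 3. Without the libraries rich in muscle RNA 50 members were positive. The count that rose is not above the background, 1.97% of all genes, and is not a result about the list. Uqcrc1 of complex III stood at -0.27 ± 0.09 (adjusted p = 0.0811). Among 10 genes of the mitochondrial genome, 0 passed in edgeR, 0 had an unadjusted p under 0.05 and DESeq2 called 0 (with a library left out 0 to 1 passed); mt-Co2 was at 0.42 ± 0.20 and mt-Atp6 at -0.35 ± 0.18 (adjusted p = 0.219 and 0.248). In the lysosome list 1 of 40 fell and 0 rose (median -0.0076), DESeq2 called 2 higher and 2 lower, 0 passed with the muscle score and 1 to 3 with a library left out. Upper-quartile scaling gave 2 higher and 1 lower. The share that fell is near the background of 2.45% and is likewise not a result about the list. Ctsc, cathepsin C, which activates the serine proteases of leukocytes, lay at 246, 298 and 346 CPM in the controls and at 148, 216 and 251 CPM after photons. For Ctsc, 8 of 8 irradiated libraries were lower than the control median, with some overlap, and its log2 fold change was -0.51 ± 0.09 (adjusted p = 0.0106). Ctsz, cathepsin Z, stood at -0.32 ± 0.10 (adjusted p = 0.0657). Of 15 Nrf2 targets 1 rose, Gstm1, a glutathione transferase (0.62 ± 0.15, adjusted p = 0.0319, 8 of 16 fits), and Slc7a11, the cystine transporter, stood at 0.43 ± 0.13 (adjusted p = 0.0675). The fit with the muscle score called 0 genes of oxidative phosphorylation and 0 Nrf2 targets. The fits without a library called 0 to 2 and 0 to 4, and DESeq2 called 1 higher and 1 lower and 3 higher and 0 lower.

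In the heat shock list 1 of 10 rose. Hspa1b, an inducible HSP70 chaperone with a near-identical neighbour, lay at 19.1, 24.7 and 31.1 CPM in the controls and at 27.9, 45.5 and 75.4 CPM after photons. Overlap of the Hspa1b groups was partial, 8 of 8 irradiated libraries being higher than the control median, and its log2 fold change was 0.92 ± 0.16 (adjusted p = 0.00928). Hspb1, a small heat shock protein, stood at -0.68 ± 0.20 (adjusted p = 0.0582). Of 15 genes of the unfolded protein response, 0 passed in edgeR, 2 had an unadjusted p under 0.05 and DESeq2 called 0; Ddit3, the factor CHOP, was at 0.90 ± 0.42 and Herpud1 at 0.36 ± 0.15 (adjusted p = 0.207 and 0.156). Of 20 genes of cholesterol synthesis, 0 passed in edgeR, 4 had an unadjusted p under 0.05 and DESeq2 called 2 (with a library left out 0 to 7 passed), with a median of -0.24, or 0.0543 without the libraries rich in muscle RNA. In the fit without the muscle-rich libraries 12 members were positive. Control replicate 2, kept there with replicates 3 and 6, was low on this list, with a mean log2 CPM of 4.98 (others 5.83 to 6.33). Its part in the change of sign was not tested. Dhcr7, a sterol reductase, was at -0.24 ± 0.08 (adjusted p = 0.086). Of 15 immediate-early genes, 0 passed in edgeR, 4 had an unadjusted p under 0.05 and DESeq2 called 2 (with a library left out 0 to 3 passed); Egr2 was at -0.71 ± 0.22 and Egr3 at -0.67 ± 0.21 (adjusted p = 0.0733 and 0.0789). Of 18 clock genes 1 rose. Clock, the activator that pairs with BMAL1, lay at 103, 123 and 129 CPM in the controls and at 128, 148 and 183 CPM after photons. The Clock groups overlapped, with 8 of 8 irradiated libraries above the median of the controls, and its log2 fold change was 0.31 ± 0.07 (adjusted p = 0.024). Clock lies on chromosome 5, and its paralogue Npas2 stood at -0.71 ± 0.32 (adjusted p = 0.192). The fit with the muscle score called 0 heat shock and 0 clock genes, those without a library 1 to 3 and 1. DESeq2 called 2 higher and 1 lower heat shock genes and 1 higher and 0 lower clock genes.

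Markers of tissues outside the tumour were examined for admixture. All 23 tested muscle genes had a negative log2 fold change, with a median of -2.78, or 0.0859 with the muscle score, -0.343 without the libraries rich in muscle RNA and -5.24 with title numbers over 100, and 2 fell, Eno3, the muscle enolase, and Casq1. Leaving out a library gave 0 to 9 calls, with 0 without control replicate 8, and 0 passed with the muscle score as a covariate. DESeq2 called 0 higher and 9 lower. Casq1, calsequestrin, the calcium store of muscle, lay at 0.617, 8.55 and 17.8 CPM in the controls and at 1.38, 2.15 and 6.38 CPM after photons. For Casq1, 8 of 8 irradiated libraries were lower than the control median, with some overlap, and its log2 fold change was -1.72 ± 0.48 (adjusted p = 0.0496, 5 of 16 fits). Ttn, titin, the most abundant muscle gene here, lay at 20.9, 723 and 3678 CPM in the controls and at 11.3, 40.8 and 703 CPM after photons. Overlap of the Ttn groups was partial, 8 of 8 irradiated libraries being lower than the control median, and its log2 fold change was -2.78 ± 1.02 (adjusted p = 0.114). With the muscle score as a covariate the Ttn log2 fold change was 0.209. Of 4 tested adipocyte genes, 0 passed in edgeR, 1 had an unadjusted p under 0.05 and DESeq2 called 0 (with a library left out 0 to 1 passed), with Pparg at 0.27 ± 0.18 and Fabp4 at -1.42 ± 0.59 (adjusted p = 0.357 and 0.158). Of 3 keratinocyte genes, 0 passed in edgeR, 1 had an unadjusted p under 0.05 and DESeq2 called 0 (with a library left out 0 to 1 passed), with Krt10 at -0.096 ± 0.22, Lor at 0.58 ± 0.27 and Sbsn at -0.16 ± 0.32 (adjusted p = 0.819, 0.195 and 0.788). Of 2 acinar genes, 0 passed in edgeR, 0 had an unadjusted p under 0.05 and DESeq2 called 0, with Cela1 at -0.38 ± 0.19 and Try5 at 0.67 ± 0.32 (adjusted p = 0.233 and 0.218). Of 3 erythroid genes, 0 passed in edgeR, 1 had an unadjusted p under 0.05 and DESeq2 called 0, with Alas2 at 0.54 ± 0.24 and Slc4a1 at -0.64 ± 0.66 (adjusted p = 0.181 and 0.586).

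**Figure D5:**
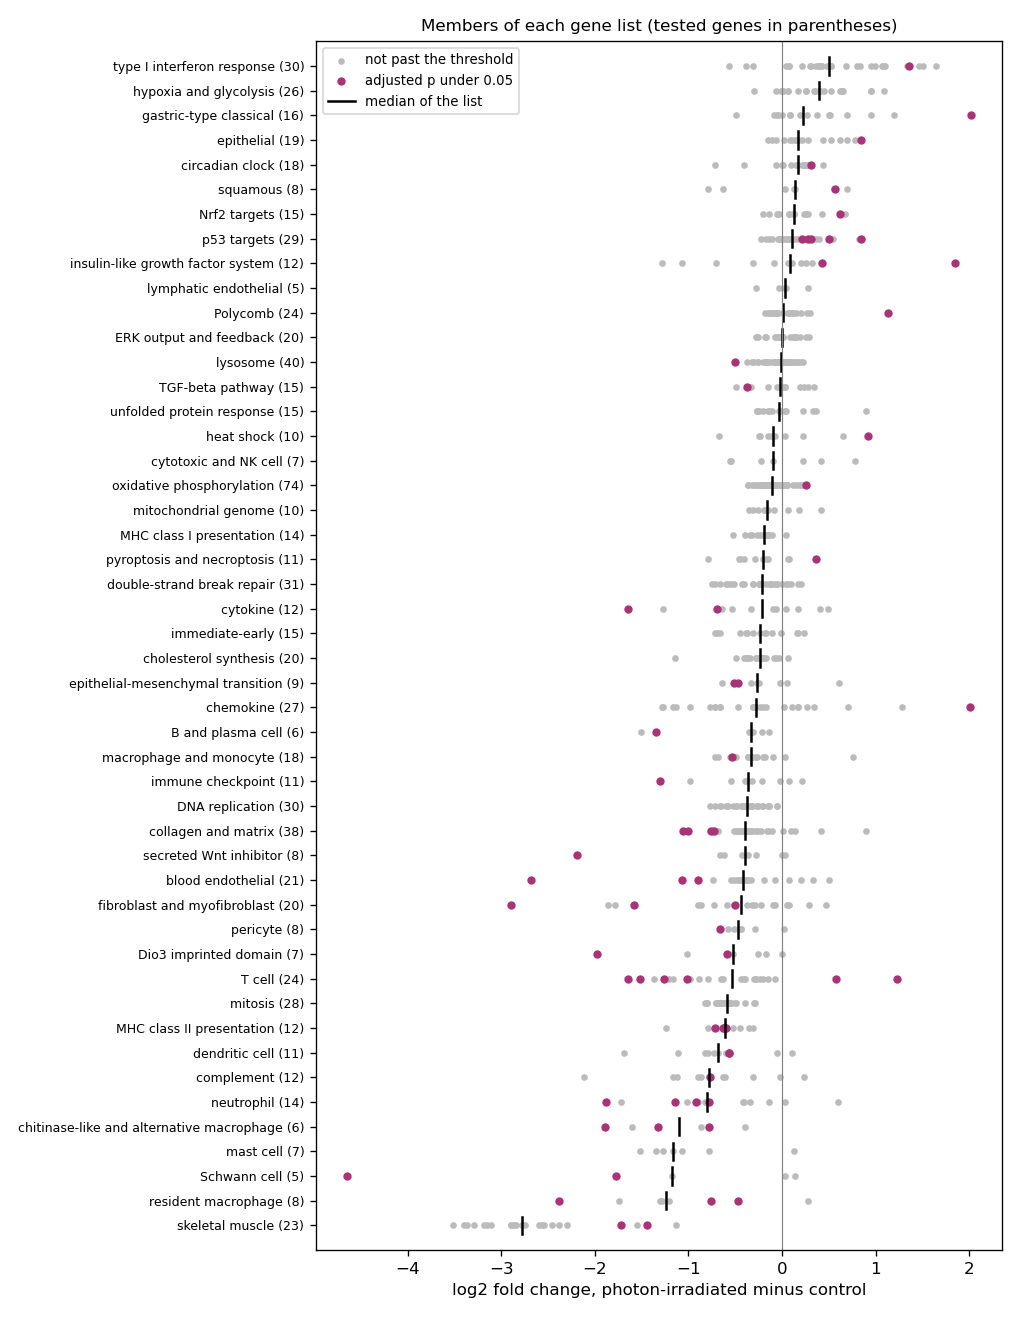
Log2 fold change after photons (x axis) of each tested member of the lists with at least 5 tested genes, in order of the list median (black line), with the number tested in parentheses and members past an adjusted p of 0.05 in colour. The interferon and hypoxia lists lay highest with medians of 0.50 and 0.40, and the skeletal muscle list lowest with a median of -2.78; over all genes the median was 0.0018.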

How the data were processed

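Stranded mRNA libraries were made from tumour RNA with an integrity number above 7.0, per the labels' protocols. The authors deposited 1 table of estimated counts per gene symbol with 32 library columns; the 8 photon_treated and 8 photon_ctrl columns were used, and the carbon-ion columns were not used here except in an alternative estimate of the spread. FastQC 0.12.0, Trimmomatic 0.32, RSEM 1.3.3 and the build mm10 are named in the submitters' processing notes, with no role or order. Which annotation was used, and whether counting used strand, is not given in the sources used here, so reads of overlapping genes may not be separable.

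The estimated counts were rounded to whole numbers, which changed library totals by at most 0.00403%. Genes were filtered with filterByExpr (minimum count 10), scaled by TMM and tested with edgeR 4.0.16 (limma 3.58.1, R 4.3.3) by the quasi-likelihood test, treated against control, with Benjamini-Hochberg adjustment over 19299 genes and a threshold of 0.05. Fold changes are log2, treated minus control, from the edgeR fit with its default prior count, and ± gives the standard error. Log2 CPM values used a prior count of 2. Groups came from the treatment label. A test on counts had been planned, and the deposited values proved to be estimated counts, hence the rounding. The code was tested on simulated data. Gene lists, members and the naming rule were chosen with earlier results of these data known. Named were the 14 highest and 14 lowest called genes that averaged log2 CPM 2 or more and had every irradiated library on 1 side of the control median, the 6 with the smallest p, up to 5 called members of each list (or the 2 with the smallest p), 5 p53 targets and the most abundant marker of each cell type. A few items that the rule names are not reported here. Of the tested symbols 16557 matched RefSeq on GRCm38.p6, which gave positions and promoters, 16551 of them with a chromosome. Alternatives were DESeq2 1.42.0, limma-voom, robust dispersion, 2 other scalings, 2 other filters, thinned counts, a spread from 32 libraries, subsets by title number, each library left out, a muscle score as a covariate and, chosen after seeing the data, the libraries rich in muscle RNA left out.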

Additional observations from a re-analysis of the deposited data

Results flagged for a closer look

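For each named gene, list and chromosome level, the highest or lowest of the 8 libraries of a group was compared with the rest, and 47 of 504 groups of values (9.33%) had 1 library standing apart, its gap to the nearest library, as a share of the range, being over Dixon's critical value. Chance gives about 1 in 20.

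Levels of genes are printed in CPM, and their gaps were measured on log2 CPM. Control replicate 2 was high for Cela1 at 21.3 (others 9.34 to 13.6) and Gzmb at 2.43 (others 0.782 to 1.35). Control replicate 2 was low for Il5ra at 2.29 (others 6.62 to 16.98). Control replicate 3 was high for Adamts15 at 78.5 (others 11.9 to 24.1), Ddit3 at 15.6 (others 3.73 to 5.39), Gucy1a1 at 16.4 (others 4.45 to 6.46) and Gucy1b1 at 6.77 (others 2.98 to 4.31). Control replicate 3 was high for Hoxb2 at 8.12 (others 1.03 to 2.06), Mfap5 at 116 (others 58.1 to 76.9), Notch3 at 87.6 (others 34.7 to 49.3) and Tek at 24.7 (others 10.2 to 14.1). Control replicate 3 was high for Zeb2 at 199.5 (others 110.2 to 145). Control replicate 6 was high for mt-Co2 at 91.5 (others 35.5 to 45.7). Control replicate 6 was low for Lrrc15 at 151 (others 233 to 338). Irradiated replicate 1 was high for Casq1 at 6.38 (others 1.38 to 2.53). Irradiated replicate 1 was low for Cdkn1a at 25.4 (others 48.2 to 69.2) and Zmat3 at 79.5 (others 96.7 to 106). Irradiated replicate 2 was high for Krt10 at 3.13 (others 1.601 to 2.13). Irradiated replicate 2 was low for Rian at 52.2 (others 82.7 to 109). Irradiated replicate 3 was high for Ddit3 at 38.6 (others 5.32 to 12.6). Irradiated replicate 3 was low for Cbx6 at 189 (others 239 to 276), Ccl11 at 1.15 (others 2.93 to 5.29), Ctse at 297 (others 474 to 653) and Ctsz at 55.5 (others 83.8 to 97.05). Irradiated replicate 3 was low for Gstm1 at 39.6 (others 79.7 to 96.2), Igf2r at 106 (others 159 to 206), Ndufa6 at 29.9 (others 38.7 to 44.9) and Pdia3 at 231 (others 319 to 406). Irradiated replicate 3 was low for Selenop at 241 (others 447 to 622) and Ttr at 7.72 (others 15.1 to 24.8). Irradiated replicate 5 was high for Flt4 at 36.4 (others 16.9 to 24.1) and Rgs5 at 112 (others 59.3 to 77.6). Irradiated replicate 5 was low for Itgae at 1.499 (others 2.86 to 3.37). Irradiated replicate 6 was high for Fscn1 at 365 (others 172 to 241). Irradiated replicate 6 was low for Cd3e at 0.107 (others 0.339 to 0.733).

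Levels of lists are means of log2 CPM over their tested members. Control replicate 2 was high for the list insulin-like growth factor system at 6.58 (others 6.20 to 6.38). Control replicate 2 was low for the lists driver genes of KPC tumours at 6.16 (others 6.40 to 6.52), heat shock at 5.70 (others 6.14 to 6.28) and cholesterol synthesis at 4.98 (others 5.83 to 6.33). Control replicate 3 was high for the lists fibroblast and myofibroblast at 6.14 (others 4.84 to 5.44) and blood endothelial at 5.33 (others 4.33 to 4.64). Irradiated replicate 1 was low for the list p53 targets at 4.36 (others 4.55 to 4.71). Irradiated replicate 2 was high for the list squamous at 2.05 (others 1.01 to 1.31). Irradiated replicate 3 was low for the list lysosome at 6.21 (others 6.57 to 6.79). Irradiated replicate 5 was high for the lists blood endothelial at 4.92 (others 3.82 to 4.15) and pericyte at 4.89 (others 3.48 to 4.04). Irradiated replicate 6 was low for the list lymphatic endothelial at -0.61 (others 1.05 to 2.43).

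Control replicate 3 stood high and irradiated replicate 3, the shallowest of its group, low in 11 groups of values each.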

How the results depend on the processing

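Against 852 genes called (380 higher, 472 lower), DESeq2 called 1911 (829 higher, 1082 lower), the muscle score as a covariate left 113 (30 higher, 83 lower), and leaving out the 6 libraries rich in muscle RNA left 8 (4 higher, 4 lower). Irradiated libraries with title numbers under 100 gave 11 (5 higher, 6 lower) and those over 100 gave 14 (10 higher, 4 lower), with 4 irradiated libraries in each. Without a filter on low counts 589 genes were called, 246 of them higher. With 1 library left out the count ran from 284 to 1816, with up to 751 higher and 163 to 1065 lower; it was 440 without control replicate 1, 1816 without 2, 422 without 3, 465 without 5, 566 without 7 and 284 without 8, and 410, 348 and 485 without irradiated replicates 2, 7 and 8. The other alternatives called 781 to 950 genes. The cause of these changes was not tested, although several fits used fewer libraries. The share of higher calls was 44.6% here, 51.4% with upper-quartile scaling, where the median of all genes was 0.032, 26.5% with the muscle score and 71.4% with title numbers over 100.

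Of 196 genes named, 109 passed and 109 of these kept their sign in all alternatives; 52 passed in all 16 fits without a library, 31 with the muscle score and 2 without the libraries rich in muscle RNA. The 18 genes whose sign turned had not passed. Without the libraries rich in muscle RNA the log2 fold change turned for Apobec3 at -0.0051, Cd22 at 0.093, Eda2r at 0.77, Flt4 at -0.17, Gpr182 at -0.034, Kit at -0.35, Krt10 at 0.23, Krt8 at 0.22, Lor at -0.013, Lrrc15 at 0.0051, Mmp9 at 0.30, Phlda3 at 0.12 and Tnfaip3 at -0.029. With irradiated title numbers under 100 the log2 fold change turned for Ccng1 at -0.025, Eda2r at 0.0099, Flt4 at -0.12, Fscn1 at -0.016, Krt10 at 0.025, Sbsn at 0.027 and Tnfaip3 at -0.015. In limma-voom the log2 fold change turned for Eda2r at 0.067, Flt4 at -0.011 and Reln at 0.19. With thinned counts the log2 fold change turned for Eda2r at 0.039. With the muscle score as a covariate the log2 fold change turned for Eda2r at 0.43, Flt4 at -0.13, Krt10 at 0.039, Phlda3 at 0.078, Tnfaip3 at -0.037 and Ttn at 0.21. With upper-quartile scaling the log2 fold change turned for Phlda3 at 0.0063. With irradiated title numbers over 100 the log2 fold change turned for Phlda3 at 0.0053. With 1 library left out it turned for Ccng1 (-0.024 to 0.063), Eda2r (-0.16 to 0.055), Flt4 (-0.10 to 0.12), Fscn1 (-0.013 to 0.16), Kit (-0.033 to 0.22), Krt10 (-0.21 to 0.074), Krt8 (-0.13 to 0.0081), Phlda3 (-0.082 to 0.025), Reln (-0.46 to 0.44) and Tnfaip3 (-0.0052 to 0.056). No paired analysis was possible because the labels give the libraries no replicate numbers shared between groups. The shallowest irradiated library, replicate 3, limits genes at low levels such as Cd8a.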

Other observations

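Further genes were chosen after their values were seen, so they are a description. Of 11 eosinophil genes listed, 6 could be tested and these fell. None of the 6 passed with the muscle score as a covariate, with adjusted p values from 0.0671 for Cd101 to 0.164 for Alox15. Nor did any pass without the libraries rich in muscle RNA, with adjusted p values from 0.106 for Cd101 to 0.364 for Siglecf. In that fit Siglecf stood at -0.56, smaller in size than its value below, and Ear2 at -1.53, larger than above. Siglecf, a sialic acid receptor of eosinophils, lay at 3.61, 5.66 and 7.82 CPM in the controls and at 1.96, 3.09 and 3.82 CPM after photons. The Siglecf groups overlapped, with 8 of 8 irradiated libraries below the median of the controls, and its log2 fold change was -0.92 ± 0.18 (adjusted p = 0.0127). Ccr3, the receptor for eotaxins, lay at 0.757, 1.90 and 4.16 CPM in the controls and at 0.0677, 0.411 and 0.912 CPM after photons. For Ccr3, 8 of 8 irradiated libraries were lower than the control median, with some overlap, and its log2 fold change was -2.05 ± 0.43 (adjusted p = 0.017). Alox15, a lipoxygenase, and Cd101, a regulatory membrane protein, changed by -1.82 ± 0.47 (adjusted p = 0.037, 8 of 16 fits) and -0.98 ± 0.17 (adjusted p = 0.00928), and Il5ra and Ear2 are given above. In the granzyme cluster beside Gzmd, all 6 tested genes were positive and 2 rose, Gzmd and Gzme. Gzme, a granzyme of activated killer cells, lay at 4.94, 10.03 and 14.9 CPM in the controls and at 8.79, 27.3 and 43.6 CPM after photons. Overlap of the Gzme groups was partial, 7 of 8 irradiated libraries being higher than the control median, and its log2 fold change was 1.44 ± 0.29 (adjusted p = 0.0148). Gzmb, the main granzyme of cytotoxic T cells, stood at 0.41 ± 0.24 (adjusted p = 0.315) and Gzmc at 0.86 ± 0.24 (adjusted p = 0.0511).

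Of the 4 genes of the albumin family, which lie together on chromosome 5, 3 rose. Afp, alpha-fetoprotein, lay at 5.31, 6.48 and 9.84 CPM in the controls and at 9.18, 11.8 and 17.9 CPM after photons. The Afp groups overlapped, with 8 of 8 irradiated libraries above the median of the controls, and its log2 fold change was 0.81 ± 0.16 (adjusted p = 0.0152). Alb, which encodes albumin, and Afm, afamin, changed by 2.22 ± 0.49 (adjusted p = 0.0216) and 1.47 ± 0.23 (adjusted p = 0.00495) from median control levels of 0.112 and 0.474 CPM, and Gc stood at 0.41 ± 0.33 (adjusted p = 0.478). All 16 tested Hox genes of the A and B clusters were negative and 4 fell: Hoxa2 (-1.601 ± 0.36, adjusted p = 0.0237), Hoxa3 (-0.99 ± 0.22, adjusted p = 0.0223, 15 of 16 fits), Hoxa4 (-1.80 ± 0.35, adjusted p = 0.0138) and Hoxb2 (-2.23 ± 0.43, adjusted p = 0.0138). The subunits of soluble guanylate cyclase, the nitric oxide receptor of vascular and smooth muscle cells, included 2 that fell, Gucy1a1 (-1.06 ± 0.28, adjusted p = 0.0383, 6 of 16 fits) and Gucy1b1 (-1.06 ± 0.22, adjusted p = 0.0168). Control replicate 3 stood apart and high for Gucy1a1, Gucy1b1 and Hoxb2. Of the near-identical Dynlt1 copies, Dynlt1a changed by -0.57 ± 0.14 (adjusted p = 0.0268, 13 of 16 fits), while Dynlt1c stood at -0.11 ± 0.21 (adjusted p = 0.792) and Dynlt1f at -0.28 ± 0.12 (adjusted p = 0.181). Of 4 feedback genes of cytokine signalling 2 fell, Tnip3 (-0.76 ± 0.15, adjusted p = 0.0138) and Socs3 (-0.42 ± 0.10, adjusted p = 0.0319, 11 of 16 fits), while Nfkbia stood at -0.21 ± 0.11 and Tnfaip3 at 0.019 ± 0.07 (adjusted p = 0.237 and 0.894). With the muscle score as a covariate Afp, Afm, Hoxb2, Gucy1a1, Gucy1b1 and Socs3 passed, whereas the adjusted p was over 0.05 for Gzme (0.0659), Alb (0.0974), Hoxa2 (0.132), Hoxa3 (0.0625), Hoxa4 (0.0551), Dynlt1a (0.137) and Tnip3 (0.0921).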
